A study of Mus musculus with 17 samples.

Results

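The genes described here are 10 genes of transforming growth factor beta (TGF-beta) signalling and of the myofibroblast, chosen by name: Tgfb1, Tgfb2, Tgfb3, Tgfbr1, Tgfbr2, Pdgfrb, Acta2, Fn1, Ccn2 and Postn. They are 10 of the 35971 genes obtained when transcripts were summed to genes, and 10 of 10 passed the filter on low counts, which kept 17011 genes. RNA from whole kidneys of 17 mice was sequenced as poly(A) stranded libraries in the TFE3-rearranged renal cell carcinoma model, in which Cre recombinase switches on the chimeric transcription factor PRCC-TFE3. The study asked what the hypoxia-inducible factors Hif1a and Hif2a contribute to disease in these kidneys, and the values below were compared between 5 genotypes.

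All mice carried the lsl-PRCC-TFE3 knock-in (KI) allele at Rosa26, silent until Cre removes a stop cassette. The Cre(-) group (n = 4) lacked KSP-Cre. Of these controls, replicates 1 and 2 were also Hif1a f/f and the other 2 carried no floxed allele. The KI group (n = 3) carried KSP-Cre without a floxed Hif allele, the KI/Hif1a KO group (n = 4) was also Hif1a f/f, the KI/Hif2a KO group (n = 3) was Hif2a f/f, and the KI/Hif1a/Hif2a DKO group (n = 3) was floxed for both. They are called KI, Hif1a KO, Hif2a KO and DKO below, and all 4 express PRCC-TFE3. KSP-Cre is driven by the Cadherin 16 promoter, which is active in kidney tubular epithelium, so the fusion and the deletions are made in epithelial cells and not in the fibroblasts, pericytes and smooth muscle cells in which Acta2, Pdgfrb and Postn are best known. The kidneys are bulk tissue, in which more cells of a type and more RNA per cell cannot be told apart. The age and sex of the sequenced mice are not given in the labels.

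TGF-beta ligands are secreted in a latent form bound to the matrix. Once released they assemble the type I receptor Tgfbr1 with the type II receptor Tgfbr2 and pass the signal to Smad proteins. In the kidney this signal is known for turning fibroblasts and pericytes into contractile, matrix-producing myofibroblasts, which are marked by alpha smooth muscle actin (Acta2) and lay down fibronectin (Fn1), connective tissue growth factor (Ccn2), periostin (Postn) and fibrillar collagens. PRCC-TFE3 keeps the DNA-binding part of TFE3, which recognises E-box elements such as CACGTG, and Hif factors recognise a core with the letters ACGTG or GCGTG.

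The sequence upstream of 3 members is shown because they carry the main results: Tgfb1 and Tgfb2 as the ligands, and Tgfbr2 as the member called in 3 comparisons between the Hif genotypes. RefSeq promoter windows were found for 6 of the 10 members (Tgfb1, Tgfb2, Tgfbr1, Tgfbr2, Acta2 and Postn). Each line below holds the 250 bases before the RefSeq start, 5' to 3' on the gene's strand, and capitals mark matches, on either strand, to CACGTG, to CATGTG or to the Hif core ACGTG or GCGTG. The windows are chr1:186705990-186706239 (minus strand, Tgfb2), chr7:25686752-25687001 (plus strand, Tgfb1) and chr9:116175364-116175613 (minus strand, Tgfbr2) of GRCm38.p6.
Tgfb2: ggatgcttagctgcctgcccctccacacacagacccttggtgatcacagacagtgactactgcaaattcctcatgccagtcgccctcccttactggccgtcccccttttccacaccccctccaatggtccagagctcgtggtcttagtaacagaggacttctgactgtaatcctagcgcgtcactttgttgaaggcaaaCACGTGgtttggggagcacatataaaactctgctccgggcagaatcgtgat
Tgfb1: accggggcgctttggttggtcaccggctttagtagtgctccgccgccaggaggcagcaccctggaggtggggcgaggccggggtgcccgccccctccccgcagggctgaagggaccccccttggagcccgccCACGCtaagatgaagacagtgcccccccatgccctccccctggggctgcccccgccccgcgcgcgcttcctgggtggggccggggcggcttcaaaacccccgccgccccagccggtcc
Tgfbr2: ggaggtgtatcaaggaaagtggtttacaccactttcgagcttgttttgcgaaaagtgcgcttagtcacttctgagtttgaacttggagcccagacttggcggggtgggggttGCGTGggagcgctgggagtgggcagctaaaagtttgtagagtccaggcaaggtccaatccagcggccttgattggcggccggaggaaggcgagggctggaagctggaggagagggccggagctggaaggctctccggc
In Tgfb2 the match is CACGTG at bases -51 to -46 from the start, which also holds the Hif core because the letters overlap. CACGTG occurs in 6.02% of the 32851 RefSeq windows of this length. Tgfb1 and Tgfbr2 hold only the Hif core, once each, which 38.6% of the windows hold. The extended M-box, with the letters TCACGTGA, TCACATGA, TCATGTGA or TCATATGA, is in none of these 3 windows and in 1.88% of all windows. Of the members not shown, Tgfbr1 was not called in KI against Cre(-). Its window chr4:47352972-47353221 holds the Hif core at bases -214 to -210 and -186 to -182. Its other window, chr4:47385966-47386215, holds no CACGTG, no CATGTG and no Hif core. Acta2 and Postn, which were called there, hold no CACGTG, no CATGTG and no Hif core. Of the Acta2 window, 217 bases lie in annotated exons of Acta2 itself, so it says little of the sequence before the annotated gene. Of the Tgfb2 window, 167 bases lie in an exon of Gm29491, an antisense gene on the other strand. The strand setting of the read counting is not given in the sources used here, so reads of both genes near this start may not be separated. These matches describe the letters only.

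The targeted genes were read first. Hif1a had 162.6 to 198.4 CPM (reads scaled to a common library size with TMM factors) in Hif1a KO kidneys against 184.0 to 231.6 in KI kidneys (log2 fold change -0.21, SE 0.13, adjusted p = 0.372). Epas1, which encodes Hif2a, had 136.5 to 149.3 CPM in Hif2a KO kidneys against 173.2 to 191.7 in KI kidneys (log2 fold change -0.33, SE 0.09, adjusted p = 0.0788). In DKO kidneys Hif1a had 173.8 to 203.3 CPM (-0.19 against KI, SE 0.14, adjusted p = 0.395). Epas1 had 155.5 to 165.3 CPM there. Its log2 fold change was -0.18 against KI (SE 0.09, adjusted p = 0.208) and -0.09 against Hif1a KO (SE 0.09, adjusted p = 0.724). These gene totals count all exons and all cell types, so they do not check a deletion of single exons in epithelium. Library totals were 16504419 to 24668827 counts. KI replicate 2 stood apart by its adipocyte markers, which summed to 3038 TPM (transcript abundance per length, scaled to a common total) against 72.4 and 200.9 TPM in the other KI kidneys, and each KI result was also computed without it. P-values come from the quasi-likelihood test of edgeR, were adjusted over all 17011 genes by the Benjamini-Hochberg method, and measure the spread between the sampled mice, since the labels say no more of how the kidneys were taken.

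Tgfb2 had the largest rise of the 10 members. In KI against Cre(-) kidneys, 8 of the 10 members were higher at adjusted p under 0.05 and none was lower: all 3 ligands, Tgfbr2, Acta2, Fn1, Ccn2 and Postn. In this comparison 60.9% of all genes tested passed the threshold, 31.6% of them as higher, so a call by itself sets a member little apart, and the sizes carry the description. The median log2 fold change of the 10 members was 1.57 against 0.03 over all genes tested. The 8 called members had no overlap between the groups, as had 28.9% of all genes in that direction. The same 8 were called when either group lost any one library, and when the libraries with the most adipocyte RNA in both groups were left out.

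**Figure D1:**
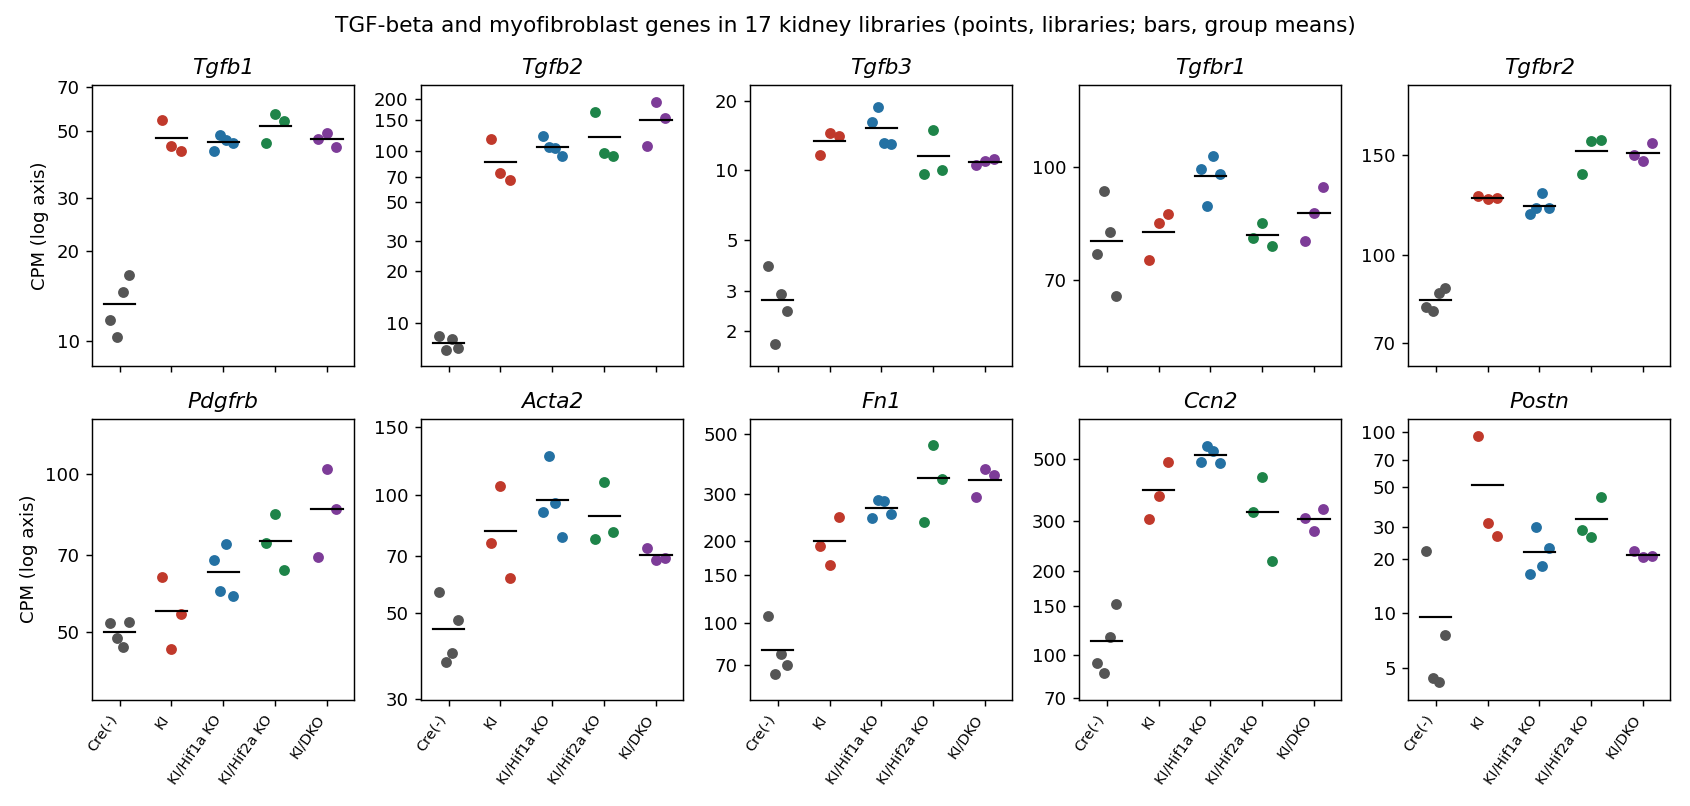
CPM of the 10 members in each of the 17 libraries by genotype, on a log axis with its own range in each panel. Points are libraries and bars are group means. The 3 ligands, Fn1 and Ccn2 separate Cre(-) from all 4 PRCC-TFE3 groups, Tgfbr1 and Pdgfrb overlap between Cre(-) and KI, and Tgfbr2 forms 3 levels, with Hif2a KO and DKO highest.

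Tgfb2 (ENSMUSG00000039239.14, chromosome 1 from 186622792 to 186705989) is a ligand known from development and from injured epithelium. It had 8.36, 6.96, 8.01 and 7.13 CPM in the 4 Cre(-) kidneys. In KI kidneys it had 117.0, 74.4 and 67.0 CPM. The groups lay far apart, with no KI kidney near the range of the controls. The log2 fold change was 3.50 (SE 0.26, adjusted p = 2.54e-08). Hif1a KO kidneys had 121.5, 104.5, 103.0 and 92.5 CPM, Hif2a KO 168.8, 97.1 and 92.8 CPM, and the DKO group 106.0, 192.9 and 155.2 CPM, all above every control.

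Tgfb1 (ENSMUSG00000002603.15, chromosome 7 from 25687002 to 25705077), the ligand most used in kidney fibrosis research, had 11.8, 10.3, 14.6 and 16.5 CPM in Cre(-) kidneys. It had 54.1, 44.6 and 42.9 CPM in KI kidneys, again without overlap (log2 fold change 1.83, SE 0.13, adjusted p = 2.34e-08). Its means in the 4 PRCC-TFE3 groups were close, at 47.2 ± 6.03 CPM in KI (SD, n = 3), 45.9 ± 2.27 in Hif1a KO (n = 4), 52.0 ± 5.88 in Hif2a KO (n = 3) and 46.7 ± 2.42 in DKO (n = 3). No pair of these 4 groups differed past the threshold for Tgfb1, with log2 fold changes between -0.18 and 0.14. Tgfb3 (ENSMUSG00000021253.7, chromosome 12 from 86056745 to 86079041) was the scarcest ligand, at 3.84, 1.77, 2.91 and 2.46 CPM in Cre(-) and 11.7, 14.5 and 14.1 CPM in KI kidneys. Its log2 fold change was 2.30 (SE 0.22, adjusted p = 3.56e-07).

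On the TPM scale, which allows levels of different genes to be compared, the balance of the ligands differed between the genotypes. The summed TPM of the 3 ligands was 11.2 ± 1.34 in Cre(-) (SD, n = 4) and 71.9 ± 15.9 in KI kidneys (n = 3). Tgfb1 made up 75.4% ± 3.68 of it in Cre(-) and 53.7% ± 2.72 in KI. Tgfb2 made up 16.5% ± 2.82 in Cre(-) and 37.4% ± 5.01 in KI, and its lowest KI share, 34.5%, was above the highest control share, 20.3%. Among DKO kidneys the share of Tgfb2 was 51.7% ± 6.81 (43.9% to 56.8%, n = 3). These shares were computed after the levels had been seen and are given without a test.

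Of the signalling receptors, Tgfbr2 rose and Tgfbr1 did not pass the test. Tgfbr2 (ENSMUSG00000032440.13, chromosome 9 from 116084293 to 116175360) binds the ligand and recruits the type I receptor. Its level was 81.1, 79.7, 85.7 and 87.8 CPM in the controls and 127.0, 125.5 and 126.4 CPM in KI. The KI kidneys lay within 2 CPM of each other and above every control (log2 fold change 0.60, SE 0.06, adjusted p = 9.96e-07). Tgfbr1 (ENSMUSG00000007613.15, chromosome 4 from 47353222 to 47414931), the kinase that phosphorylates Smad2 and Smad3, had 75.8, 92.8, 81.4 and 66.6 CPM in Cre(-) against 74.4, 83.8 and 86.1 CPM in KI, with full overlap (log2 fold change 0.04, SE 0.10, adjusted p = 0.74).

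Pdgfrb (ENSMUSG00000024620.11), the platelet-derived growth factor receptor of pericytes and fibroblasts, was the other member not called, at 52.0, 48.7, 46.9 and 52.2 CPM in Cre(-) and 63.7, 46.4 and 54.2 CPM in KI kidneys (log2 fold change 0.13, SE 0.13, adjusted p = 0.409). Both calls depend on the scale. In limma on log2(TPM + 1) the median of all genes itself shifted by 0.378 between KI and Cre(-), and Tgfbr1 (0.46, adjusted p = 0.00292) and Pdgfrb (0.55, adjusted p = 0.0017) were then called as higher. Relative to that shift they differed by 0.08 and 0.17, while Tgfb2 differed by 2.90 and Tgfb1 by 1.68.

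Acta2 (ENSMUSG00000035783.9, chromosome 19 from 34241090 to 34255590), the contractile actin of smooth muscle and of myofibroblasts, had 56.5, 37.3, 39.4 and 47.8 CPM in Cre(-) kidneys. It had 75.6, 105.7 and 61.3 CPM in KI kidneys, above every control (log2 fold change 0.84, SE 0.20, adjusted p = 0.00161). The highest of them, replicate 2, is the adipocyte-rich kidney, and without it the log2 fold change was 0.60. It was 0.57 (adjusted p = 0.0072) with an adipocyte score as covariate, and 0.72 (adjusted p = 0.00578) without the library of each group with the most adipocyte RNA, so Acta2 was called in each of these fits. The size was thus smaller for Acta2 than for the matrix genes that follow.

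Fn1 (ENSMUSG00000026193.15, chromosome 1 from 71585520 to 71653200), which encodes fibronectin, had 105.5, 64.8, 76.5 and 69.9 CPM in Cre(-) and 191.3, 164.0 and 245.5 CPM in KI kidneys (log2 fold change 1.34, SE 0.20, adjusted p = 3.7e-05). Ccn2 (ENSMUSG00000019997.11, chromosome 10 from 24595442 to 24598683), a matricellular protein induced by TGF-beta and by YAP, had 93.2, 86.3, 116.0 and 151.7 CPM in Cre(-) and 306.9, 370.8 and 489.4 CPM in KI kidneys (log2 fold change 1.80, SE 0.22, adjusted p = 4.23e-06). Both genes were without overlap. Per length, Ccn2 was the most abundant member in either group, at 52.6 ± 12.5 TPM in Cre(-) and 253 ± 44.8 TPM in KI kidneys.

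Postn (ENSMUSG00000027750.16, chromosome 3 from 54361109 to 54391037), a matricellular protein of activated fibroblasts, varied most within groups. Its level was 22.1, 4.39, 4.17 and 7.64 CPM in the controls and 95.3, 31.6 and 26.6 CPM in KI kidneys. A single kidney in each group, replicate 1, was far above the others, yet the groups did not overlap (log2 fold change 2.43, SE 0.52, adjusted p = 0.000789). The log2 fold change was 1.62 without KI replicate 1 and 3.24 without Cre(-) replicate 1, and the call held without either.

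**Figure D2:**
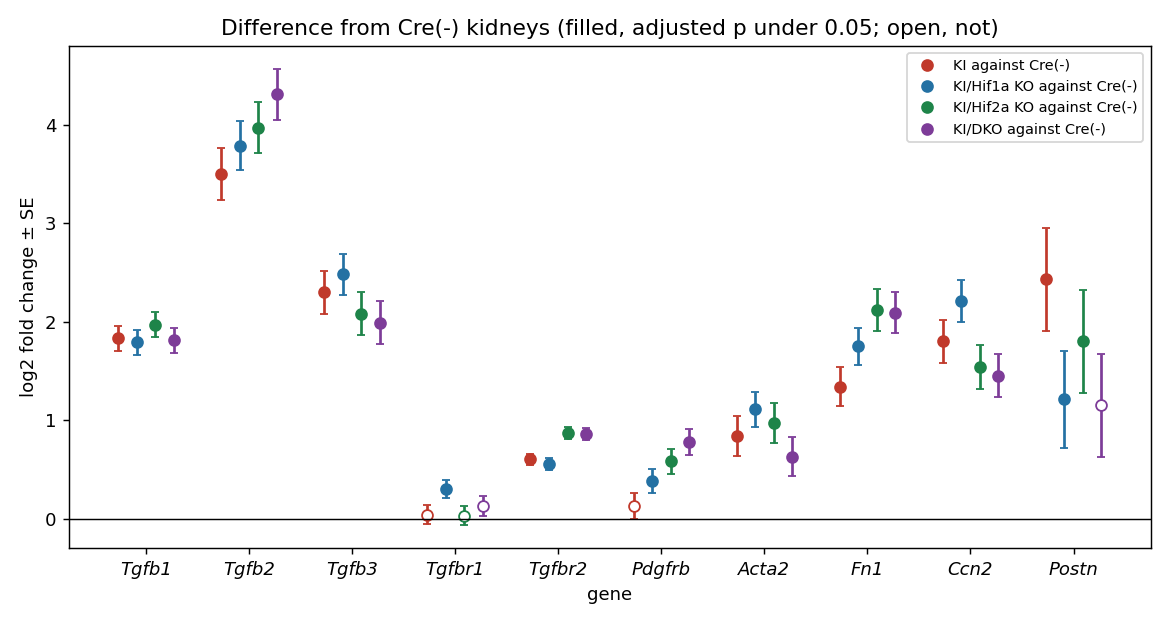
Log2 fold change of each member (y axis, with the standard error as bars) in the 4 PRCC-TFE3 groups against Cre(-), from edgeR. Filled points passed adjusted p under 0.05. All points lie at or above 0, with Tgfb2 highest (3.50 in KI, 4.31 in DKO) and Tgfbr1 lowest, and the 4 comparisons share the Cre(-) kidneys.

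The other 3 groups were compared with the same Cre(-) kidneys. In Hif1a KO 10 of 10 members were higher (61.9% of all genes passed, 31.9% as higher), in Hif2a KO 9 (61.9%, 32.0% as higher) and in DKO 8 (58.3%, 30.4% as higher), and no member was lower in any of them. Tgfbr1 was called in Hif1a KO alone (log2 fold change 0.30, SE 0.09, adjusted p = 0.011), where its log2 fold change was 0.21 (adjusted p = 0.0907) against the Hif1a f/f controls only. Pdgfrb was called in all 3 (0.38, 0.58 and 0.78), but not in Hif1a KO when either the Hif1a f/f controls (adjusted p = 0.0626) or the unfloxed controls (adjusted p = 0.0555) were used alone. Against the Hif1a f/f controls alone, the calls of Acta2 in DKO (adjusted p = 0.069) and of Postn in Hif2a KO (adjusted p = 0.0772) were also lost. Postn missed the threshold in DKO (1.15, adjusted p = 0.0702), and in Hif1a KO its call (1.21, adjusted p = 0.0425) was lost in 6 of 8 refits with a library left out. In the order of group means, Cre(-) was lowest for 10 of 10 members. Of the 40 pairs of groups that are neighbours in these orders, 8 passed the threshold, 7 of them against Cre(-), and the remaining one was DKO over KI for Tgfbr2.

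Hif2a loss can be read in 2 pairs of groups that share no library: Hif2a KO against KI, and DKO against Hif1a KO. Tgfbr2 was higher in both. It had 139.3, 158.8 and 159.6 CPM in Hif2a KO kidneys, each above the KI kidneys, and 150.3, 146.6 and 157.7 CPM in the DKO group. In Hif1a KO kidneys it had 118.2, 120.9, 128.8 and 121.3 CPM, all below the DKO kidneys. The log2 fold change was 0.27 (SE 0.07, adjusted p = 0.0557) for Hif2a KO against KI and 0.31 (SE 0.06, adjusted p = 0.0495) for DKO against Hif1a KO.

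The direct comparison of the 2 single knockouts gave -0.32 for Tgfbr2 in Hif1a KO against Hif2a KO (SE 0.06, adjusted p = 0.0403), and DKO against KI gave 0.26 (SE 0.07, adjusted p = 0.0221). Hif1a loss moved Tgfbr2 by -0.05 in KI kidneys (adjusted p = 0.719) and by -0.01 in Hif2a KO kidneys (adjusted p = 0.992), both with SE under 0.1. These calls sit close to the threshold. That of DKO against Hif1a KO was lost in each of 7 refits without one library, with sizes between 0.28 and 0.34. That of Hif1a KO against Hif2a KO was lost in 6 of 7, with sizes between -0.38 and -0.29. That of DKO against KI was lost in 4 of 6, with sizes between 0.23 and 0.29. In edgeR with only the groups compared, DKO against KI gave adjusted p = 0.0503 for Tgfbr2.

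Few other members differed between the Hif genotypes. In Hif2a KO against KI, 0 of 10 members passed edgeR's threshold, which 1.39% of all genes passed. DESeq2 called 2 members there, Tgfbr2 and Fn1, among 1015 genes, against 236 genes in edgeR. In edgeR 3 members had an unadjusted p under 0.05: Tgfbr2, Pdgfrb and Fn1. In Hif1a KO against KI, 0 of 10 members passed in both tools (5.44% of all genes in edgeR, 1665 genes in DESeq2). Tgfbr1 (0.25) and Postn (-1.22) had an unadjusted p under 0.05 there in edgeR. The share of all genes under this unadjusted level was not computed, so it does not set these members apart. Hif1a KO against Hif2a KO called 1 member, Tgfbr2 (0.429% of all genes passed), DKO against Hif1a KO 1 member, Tgfbr2 (0.406%), and DKO against Hif2a KO 0 (0.00588%, with 0 members at an unadjusted p under 0.05 and 0 in DESeq2). The term for a Hif1a effect that depends on Hif2a passed for 0 of 17011 genes in edgeR. No member had an unadjusted p under 0.05 for it in edgeR, and DESeq2 called 31 genes, none of them a member.

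In DKO against KI 4 of 10 members were higher and none lower, where 12.7% of all genes passed and 6.53% were called as higher: Tgfb2 (log2 fold change 0.81, SE 0.25, adjusted p = 0.0436), Tgfbr2, Pdgfrb (0.65, SE 0.14, adjusted p = 0.0107) and Fn1 (0.75, SE 0.22, adjusted p = 0.0361). Pdgfrb had 69.4, 102.2 and 85.7 CPM in DKO kidneys, each above the KI kidneys. Fn1 had 290.4, 370.0 and 351.6 CPM, also without overlap. Tgfb2 overlapped, since the lowest DKO kidney (106.0) was below the highest KI kidney (117.0). Without KI replicate 2 alone 1 of the 4 calls was left, without DKO replicate 3 it was 1, without KI replicate 3 it was 2, and without DKO replicate 2 it was 0.

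Separation of every kidney of one group from every kidney of another, without a test, gave a wider picture. Tgfbr1 was the member whose Hif1a KO kidneys all lay above KI (8.96% of all genes), and Tgfbr2 and Pdgfrb were the 2 whose Hif2a KO kidneys did (9.52%). Between DKO and KI, Tgfbr2, Pdgfrb and Fn1 were separated upward (16.5%) and Tgfb3 and Postn downward (17.2%). Between DKO and Hif1a KO, Tgfbr2 and Fn1 were separated upward (7.48%) and Tgfb3, Acta2 and Ccn2 downward (8.53%). Between the single knockouts, Tgfbr1 and Ccn2 were higher in every Hif1a KO kidney (8.31%) and Tgfbr2 lower (6.75%). DKO against Hif2a KO separated Acta2 and Postn downward (5.31%). For the members not called by edgeR this remains a description of 3 or 4 kidneys a group.

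Markers of tubular epithelium moved with the same comparison. The 7 markers of thick limb, distal tubule and collecting duct summed to 640.3 to 1137 TPM in KI and 2110 to 3279 TPM in DKO kidneys, with 5 of 7 called as higher. In all 4 PRCC-TFE3 groups the kidney with the highest sum of these markers was also the kidney with the most Tgfb2: replicate 1 in KI (1137 TPM), Hif1a KO (2892 TPM) and Hif2a KO (2475 TPM), and replicate 2 in DKO (3279 TPM). The same held for the sum of proximal tubule markers. The kidney with the least Tgfb2 had the lowest sum in 1 of 4 groups for either list. This was noticed after the values had been seen, among 10 members and 16 lists, and Tgfb3 matched the smooth muscle and YAP lists in the same way in 4 of 4 groups. Its part in the Tgfb2 result was not tested. Of 11 fibroblast markers tested, 5 were higher in DKO than in KI, among them Dpt (1.51) and Lum (1.49), and their sum was 382.8 to 434.4 TPM in KI and 479.5 to 591.0 TPM in DKO kidneys.

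Ccn2 was lowest in the kidneys without Hif2a among the 4 PRCC-TFE3 groups by its means. It had 488.6, 560.4, 535.8 and 485.0 CPM in Hif1a KO kidneys, 325.1, 433.9 and 217.4 CPM in Hif2a KO, and 308.1, 276.7 and 332.4 CPM in the DKO group. The Hif1a KO kidneys lay above all kidneys of both other groups. The log2 fold changes for Hif2a loss were -0.26 (SE 0.23, adjusted p = 0.584) and -0.76 (SE 0.22, adjusted p = 0.16), neither past the threshold. The second passed in DESeq2 (-0.75, adjusted p = 0.0312) and in edgeR with only these groups in the fit (-0.76, adjusted p = 0.0203). Acta2 and Tgfb3 were not called between any of the 4 PRCC-TFE3 groups, although DKO kidneys had the narrowest ranges, 68.1 to 73.2 CPM for Acta2 and 10.5 to 11.1 CPM for Tgfb3.

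**Figure D3:**
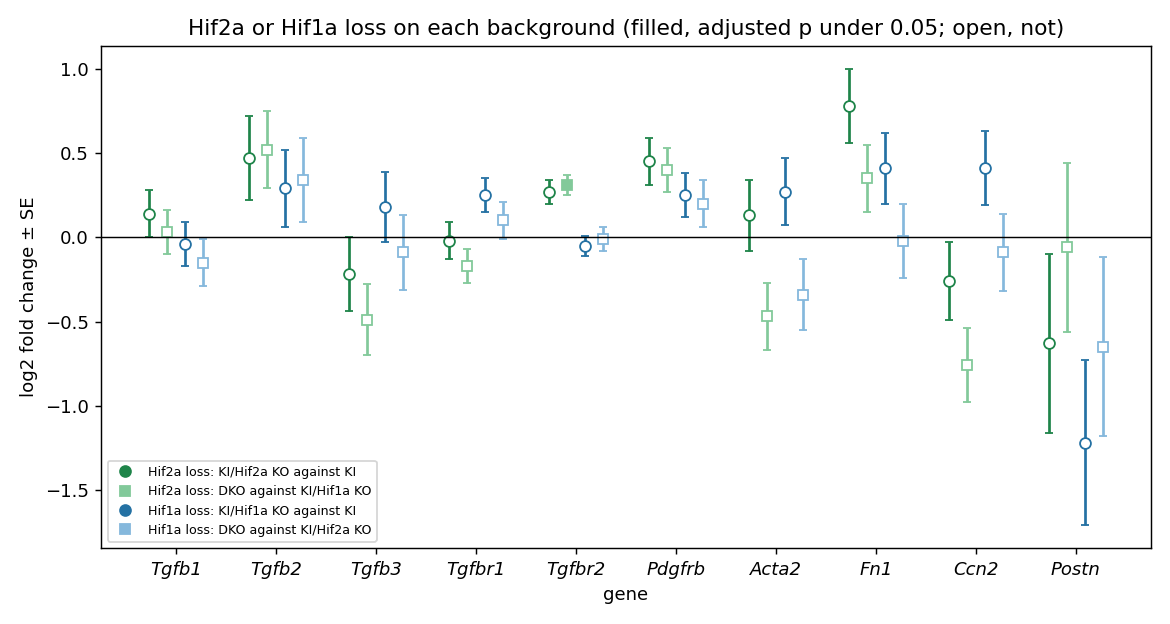
Log2 fold change with its standard error for loss of Hif2a (green) and of Hif1a (blue), each on 2 backgrounds, by member. Filled points passed adjusted p under 0.05, which only Tgfbr2 did, in DKO against Hif1a KO (0.31). For Hif2a loss Tgfbr2 was 0.27 and 0.31 on the 2 backgrounds and Ccn2 -0.26 and -0.76.

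Fn1 transcripts differ in 2 alternative exons known from fibronectin of embryos, wounds and activated fibroblasts. The extra domain A exon (chr1:71603660-71603929) is in 4 annotated transcripts and skipped in 4. Transcripts holding it made up 10.7% ± 3.29 of Fn1 TPM in KI (SD, n = 3) and 8.09% ± 2.97 in Cre(-) kidneys (n = 4). The groups overlapped, at 7.63% to 14.2% in KI and 5.02% to 11.7% in Cre(-) kidneys (exact permutation test, two-sided, p = 0.343). No outcome of 3 against 4 samples can bring this p under the threshold, so the test cannot decide whether the shares differ. The extra domain B exon (chr1:71613763-71614035) is in 1 annotated transcript and skipped in 7. It made up 2.14%, 1.64% and 1.71% in the KI kidneys and 0.845%, 0%, 0% and 1.42% in the controls, each KI kidney above each control. The difference was 1.26 percentage points (exact permutation test, two-sided, p = 0.0571, the smallest that 3 against 4 samples allow). As a share of only the transcripts that span the exon, a denominator chosen after seeing the data, the lowest KI kidney (3.087%) fell below the highest control (3.115%), and the exact permutation test, two-sided, gave p = 0.114. The shares are estimates from single-end reads of 75 nt that were split among overlapping transcripts.

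Other genes of the pathway were read against the same background, in which 60.9% of all genes were called and 31.6% were higher. Of 14 transcripts known to rise with TGF-beta, 12 rose in KI against Cre(-) and none fell (median log2 fold change 1.91). The largest were the protease inhibitor Timp1 (5.06, SE 0.43) and the matrix protein Tnc (4.10, SE 0.25). Timp1 was scarce in the controls, at 0.161 to 0.754 CPM against 10.2 to 16.8 CPM in KI kidneys. Of 12 genes that store or activate latent TGF-beta, 4 were higher and 4 lower, shares near that background. Ltbp2, a protein of elastic microfibrils, had 0.631 to 1.37 CPM in Cre(-) and 61.4 to 71.5 CPM in KI kidneys (log2 fold change 6.10, SE 0.30, adjusted p = 6.23e-10), and Ltbp3, which binds the latent ligand, rose by 1.75. Itgb8 (-2.18) and Itgb6 (-1.46), subunits of the integrins that release the ligand at epithelial surfaces, were lower.

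Of 16 other receptors, Smads and regulators, 8 were higher and 5 lower. Tgif1, a corepressor of Smad transcription, was higher by 1.76 and Smad3 by 0.93. The endothelial receptors Eng (-0.65) and Acvrl1 (-0.54) were lower, as were 5 of 7 endothelial markers. Of 5 genes of the PDGF group 4 were higher, Pdgfa by 1.77 and Pdgfb by 1.71, and Pdgfc was lower (-1.18). Of 10 genes of the YAP and TEAD list 6 were higher, with Ankrd1 at 4.67 and Ccn1, which is also on the list of TGF-beta transcripts, at 2.18. Yap1 itself was lower (-0.41).

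Genes of the cells that make matrix moved in part. All 5 fibrillar collagens rose in KI against Cre(-), Col1a1 by 2.21 (SE 0.19) and Col3a1 by 1.57 (SE 0.21). Of 12 smooth muscle and pericyte markers 6 were higher, with Actg2 at 3.28 (SE 0.64) and Mcam at 1.36, and Myl9 was lower (-0.50). Actg2 was scarce, with means of 0.188 CPM in Cre(-) and 1.88 CPM in KI kidneys. In the Cre(-) libraries 3 counts make 0.161 to 0.206 CPM, so the size of its rise is uncertain. Of 11 fibroblast markers 5 were higher, with Mfap5 at 2.61 and Gli1 at 2.01. Markers of other cells moved too: 6 of 7 macrophage markers and 4 of 7 T and B cell markers were higher, 6 of 6 tubular injury markers were higher, and 7 of 7 proximal tubule markers were lower, from 3217 to 3690 summed TPM in Cre(-) to 167.7 to 221.6 TPM in KI kidneys. The part of this change in tissue makeup in the rise of the members was not tested.

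**Figure D4:**
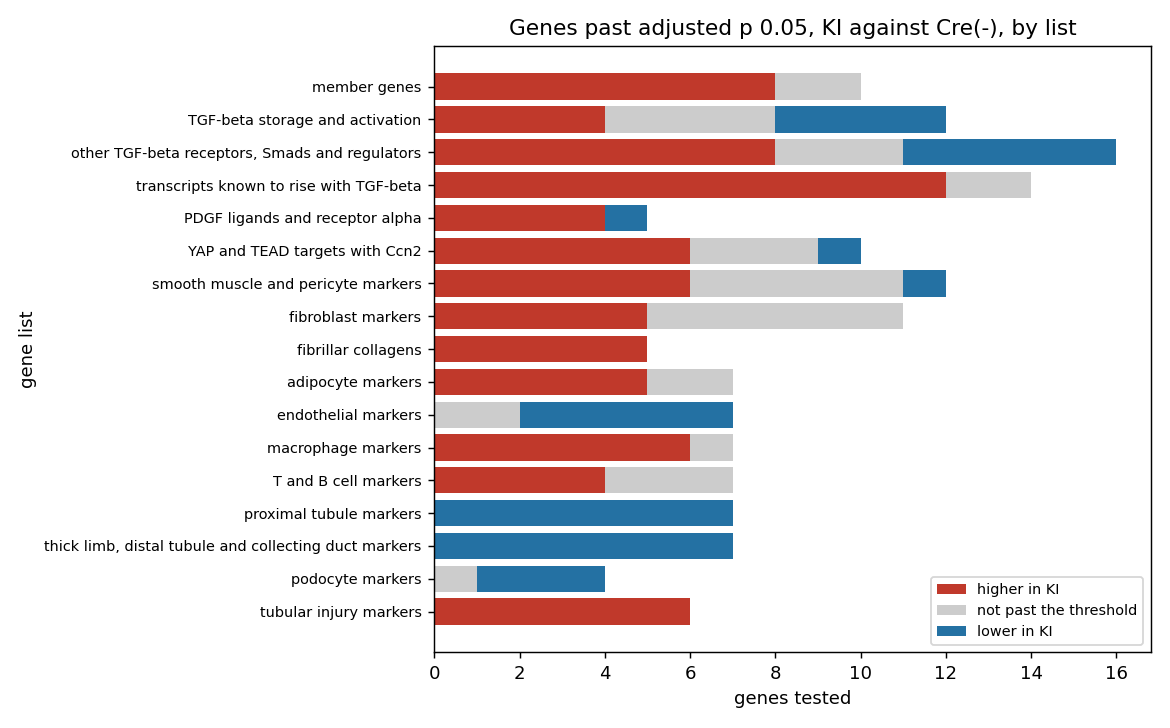
Number of genes tested in each list (x axis) that were higher, lower or not past adjusted p under 0.05 in KI against Cre(-) kidneys. The list of transcripts known to rise with TGF-beta (12 of 14) and the fibrillar collagens (5 of 5) were mostly higher, and of the 12 storage and activation genes 4 were higher and 4 lower, near the shares over all genes.

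Most of the collagens were called higher than in KI where a Hif gene was deleted. Col3a1 had 119.0, 94.5 and 83.3 CPM in KI kidneys, 215.4, 209.6, 229.9 and 168.0 CPM in Hif1a KO kidneys, 246.2, 249.9 and 297.6 CPM in Hif2a KO, and 231.2, 370.9 and 324.8 CPM in the DKO group. Each kidney of these 3 knockout groups was above every KI kidney, as for 8.96%, 9.52% and 16.5% of all genes. Against KI, the log2 fold changes were 1.06 (adjusted p = 0.0136), 1.42 (adjusted p = 0.0137) and 1.64 (adjusted p = 0.00149), in comparisons that share the KI kidneys. Of the 5 collagens 3, 3 and 4 were called as higher in Hif1a KO, Hif2a KO and DKO. Of all genes 5.44%, 1.39% and 12.7% passed there in either direction. The collagen calls were not examined under other settings. As a list, the 14 TGF-beta transcripts moved less. Their median log2 fold changes against KI were -0.09, 0.13 and -0.02 in Hif1a KO, Hif2a KO and DKO, against 0.73, 0.76 and 1.06 for the collagens. In Hif1a KO 2 were higher, Sphk1 (0.70) and Tgfbi (0.52), and 1 was lower, Snai2 (-0.89). None was called in Hif2a KO, and Snai2 (-0.76) and Bhlhe40 (-0.67) were lower in DKO.

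Among the 13 PRCC-TFE3 kidneys, the genes whose log2 CPM followed a member most closely were named by Pearson r, as a description over libraries that share genotype and tissue makeup. Acta2 was followed by Tagln (r = 0.915), Tpm2 (r = 0.883) and Krcc1 (r = 0.85). Of these, Tagln and Tpm2 encode other contractile proteins of smooth muscle. Tgfb2 was followed by Gcnt1 (r = 0.952), Zbtb46 (r = 0.949) and Ggct (r = 0.949), and Ccn2 by Pitpna (r = 0.945), Ezr (r = 0.931) and Nat2 (r = 0.921). The highest r was 0.942 for Fn1 (Ttc5), 0.949 for Postn (Dzip1) and 0.886 for Tgfb1 (Mad1l1). All were the top of a search over the genes past the filter, in 13 libraries. How high an r such a search gives for unrelated genes was not tested. With group means taken out, the r values of the named genes were between 0.789 and 0.944.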

How the data were processed

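RNA from 17 mouse kidneys was sequenced on stranded TruSeq mRNA libraries (single-end, 75 nt). The methods and the submitters' processing notes name Trim Galore 0.6.6 with cutadapt 2.5, STAR 2.7.9a and RSEM, with hg38 or GRCm38 as build. The files list mouse transcripts, so GRCm38 was used. The authors deposited expected counts per transcript, estimates of reads with no scaling across samples. TPM per transcript, scaled for length and total, were deposited beside them. Of 119353 transcripts, 116770 (97.8%) matched GENCODE M21 and held 99.04% to 99.24% of each library's counts. They were summed to 35971 genes, and counts were rounded.

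Differences were tested with edgeR 4.0.16 (quasi-likelihood, TMM, filterByExpr with minimum count 10, R 4.3.3) in one fit of all groups, with Benjamini-Hochberg adjustment and a threshold of 0.05. On simulated counts for KI against Cre(-), 188 of 200 changed genes were called, with 3.09% false calls over 16774 genes. Of the 2-fold changes 88% were found, and of the 4-fold changes 100%. The simulation changed only these 200 genes, as many up as down, none of them scarce, with the spread taken from the trend over all genes. In the data 60.9% of genes were called in this contrast, so these rates are not its error rates. Fn1 exon shares were tested by exact permutation (scipy 1.17.1).

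The members and lists were chosen with earlier results of these data known. Named genes were the members, at most 2 genes per list and direction with the largest called change and a mean TPM of at least 1, and the 3 genes with the highest r to a member. Alternatives were DESeq2 1.42.0 and its size factors, no filter, only the groups compared, a replicate block, limma 3.58.1 on log2(TPM + 1), an adipocyte score as covariate, the floxed or the unfloxed controls alone, and each library left out. Sequences are from RefSeq (GRCm38.p6). The library names run mostly group by group, so their order and the genotype cannot be told apart.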

Additional observations from a re-analysis of the deposited data

Results flagged for a closer look

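One result was singled out by a direct test between genotypes. Tgfbr2 differed between the single knockouts, with a log2 fold change of -0.32 in Hif1a KO against Hif2a KO (SE 0.06, adjusted p = 0.0403 in edgeR's quasi-likelihood test). It was lower in 4 of 4 Hif1a KO kidneys than in each of 3 Hif2a KO kidneys, and 6.75% of all genes had no overlap in that direction. Over the alternatives the value was between -0.38 and -0.29. The call was lost with no filter (adjusted p = 0.0757), with only the groups compared (0.112), with the replicate block (0.0991), in limma (0.093), with the adipocyte score (0.0537) and in 6 of 7 refits without one library. No library of a member in the 20 groups of 4 that could be examined stood outside Dixon's limit.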

How the results depend on the processing

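The 8 calls of KI against Cre(-) were the same in number in every alternative but limma on log2(TPM + 1), where 10 members were called. Comparisons between the PRCC-TFE3 groups moved more, and the cause was not tested. In Hif2a KO against KI, where edgeR called 0 members, DESeq2 called 2. DESeq2 called 2 in DKO against Hif1a KO, Tgfbr2 and Ccn2, where edgeR called 1. Over all genes DESeq2 called 1015 against 236 in edgeR in the first comparison, and 418 against 69 in the second. The 1 call in each of Hif1a KO against Hif2a KO and DKO against Hif1a KO became 0 with no filter, with limma on log2(TPM + 1), with the adipocyte score and with the replicate block, and for Hif1a KO against Hif2a KO also became 0 with only the groups compared. In that last setting DKO against Hif1a KO had a count of 1, which was Ccn2 and not Tgfbr2 (adjusted p = 0.064). In DKO against KI the 4 calls became 1 with only the groups compared and 2 with the adipocyte score. Without the 2 libraries with the most adipocyte RNA in KI and Cre(-), an alternative chosen after seeing the data, all 4 were lost, and the count of 1 was Postn, lower in DKO (-1.54, adjusted p = 0.0428). With one library left out, the count ranged from 0 to 2 in Hif2a KO against KI, from 0 to 4 in DKO against KI, from 0 to 1 in Hif1a KO against Hif2a KO and stayed at 0 in DKO against Hif1a KO.

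Changes of sign were seen only in differences that had not passed the threshold. Tgfb1 in DKO against KI became 0.00 with only the groups compared and 0.10 in limma, Tgfbr1 in Hif2a KO against KI became 0.06 in limma and 0.01 without the adipocyte-rich libraries, Tgfbr1 in KI against Cre(-) became -0.04 against the floxed controls, and Acta2 in DKO against KI became 0.03 without the adipocyte-rich libraries. With a library left out, the value ranged from -0.03 to 0.13 for Tgfbr1 in KI against Cre(-), from -0.11 to 0.07 for Tgfb1 in Hif1a KO against KI, from -0.08 to 0.09 for Tgfb1, from -0.37 to 0.03 for Acta2 in DKO against KI, from -0.94 to 0.18 for Postn, from -0.08 to 0.03 for Tgfbr1 and from -0.04 to 0.37 for Acta2 in Hif2a KO against KI, and from -0.03 to 0.31 for Acta2 and from -0.34 to 0.15 for Tgfb2 in Hif1a KO against Hif2a KO. Of 1223 member values under alternatives, 1137 kept direction and side of the threshold.

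Counts over all genes moved too. Against KI, Hif1a KO had 925 calls in edgeR, 1665 in DESeq2 and 246 with only the groups compared, Hif2a KO had 236, 1015 and 2, and DKO had 2164, 2905 and 1028. Hif1a KO against Hif2a KO had 73, 537 and 132, DKO against Hif1a KO 69, 418 and 164, and DKO against Hif2a KO 1, 18 and 0. With one library left out, the counts in Hif1a KO against KI were highest (1169) without Hif1a KO replicate 2, lowest without Hif1a KO replicate 3 and next lowest (308) without Hif1a KO replicate 1. They ranged from 13 to 857 in Hif2a KO against KI (without KI replicate 3 and KI replicate 1), from 722 to 2291 in DKO against KI (lowest without DKO replicate 2), from 1 to 193 in Hif1a KO against Hif2a KO (without Hif2a KO replicate 2 and Hif2a KO replicate 1) and from 6 to 35 in DKO against Hif1a KO (lowest without DKO replicate 2), so the shares of all genes called in these comparisons depend on single kidneys.

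Replicate numbers do not pair the mice. Of 31 pairs of libraries with the same number 4 had a correlation of deviations above 0.1, and 3 libraries matched their own number best. With the replicate block, DKO against KI called 3 members and KI against Cre(-) 8. A fit with sex as covariate was not run, because the libraries could not be split by sex: Ddx3y was at most 0.2025 CPM in any of them, while Kdm5d was read in all. Kdm5d had a mean of 9.69 CPM in KI and 17.59 CPM in Cre(-) kidneys (log2 fold change -0.86, adjusted p = 0.0011 in edgeR). It was also called lower than in Cre(-) in Hif1a KO (-0.81), Hif2a KO (-0.82) and DKO (-0.59), and the cause was not tested. Groups of 3 or 4 kidneys and about 18635282 counts per library limit what small changes in scarce genes such as Tgfb3 can show.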
